A study of Homo sapiens with 13 samples.

Results

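Chromatin accessibility at 10 genes of the NF-kB response was compared between G1 cells and M-phase cells of T98G, an established human glioblastoma line. The genes encode the secreted factors IL6, LIF, CXCL8, CXCL1, CXCL2, CXCL3 and CCL2, the prostaglandin synthase PTGS2, and the feedback inhibitors NFKBIA and TNFAIP3. Their peaks were all those of the deposited table that overlapped a gene body extended by 25 kb on each side in the GENCODE annotation of hg19. This gave 36 of 129347 peaks, of which 7 lay over an annotated transcription start site (TSS) of 1 of the 10 genes and 29 were flanking. Accessibility was measured by ATAC-seq, in which a transposase cuts open DNA, in 3 G1 and 3 M-phase libraries. G1 cells had been kept without serum for 72 h. M-phase cells had been kept without serum for 48 h, released into 20% serum for 36 h with nocodazole (0.2 μg/mL), which blocks spindle assembly, and collected by shaking off rounded cells. Serum, nocodazole and the sequencing platform (HiSeq for G1, HiSeq and NextSeq for M-phase) therefore changed together with the phase, and their parts cannot be told apart. The sources used here do not state whether the replicates were separate cultures, so p-values measure the spread between these libraries, which may be technical.

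NF-kB is a family of dimeric transcription factors that inhibitor proteins hold in the cytoplasm until cytokine or stress signals lead to the inhibitors' destruction. The freed dimers bind a short DNA element near cytokine and chemokine genes, and also near the genes for IkBα (NFKBIA) and the ubiquitin-editing enzyme A20 (TNFAIP3), which then switch the pathway off again. In glioblastoma the pathway is known for its activity in tumours with mesenchymal traits and for driving secreted factors such as IL6 and CXCL8. An accessible promoter is one that transcription factors can reach, and its count is not a measure of transcription.

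Values below are scaled read counts per peak as the authors deposited them, with sums over all peaks of 4191845 to 5092426 in G1 libraries and 5475345 to 6000423 in M-phase libraries. Read back from the size of 1 read in each library, they correspond to about 4333935 to 5365024 reads in peaks in the G1 libraries and 12470564 to 14202790 in the M-phase libraries, so that low counts are less precise in G1. Log2 changes are M-phase over G1 on the scale of log2(scaled count + 8), which understates changes of low peaks, and each was tested with limma over 73121 peaks with Benjamini-Hochberg adjustment. A peak was called at an adjusted p under 0.05. In a bulk library, a lower count can come from fewer open chromosome copies or from less cutting at each, and these cannot be told apart. As a check of the cell label, 4 of 7 glioblastoma and glia markers had a TSS peak, with VIM at a mean of 616 scaled counts, CD44 at 181 and OLIG2 at 96.1, but SOX2 at only 9.67 and no TSS peak in the table for GFAP, NES or S100B. Of the markers of other cells, 1 of 6 for blood and immune cells (TYROBP, 3.97), 0 of 3 for endothelium and 1 of 2 for epithelium (EPCAM, 99.2) had one.

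Of the 10 promoters, 4 were more accessible in M-phase (IL6, CXCL3, NFKBIA and TNFAIP3), 3 had a peak that did not change beyond the threshold (CXCL8, CCL2 and PTGS2), and no peak of the table overlapped the TSS of LIF, CXCL1 or CXCL2. No member promoter was called lower, with limma, with edgeR or at an unadjusted limma p under 0.05 (0 of 7 each), although PTGS2 was with equal totals in peaks. For comparison, limma called 43.2% of all 15500 TSS peaks tested higher and 5.94% lower in M-phase, so that 4 of 7 is near the share of promoters at large. Every M-phase library lay above every G1 library at 4 of the 7 (48.5% of all TSS peaks) and below at 1, PTGS2 (8.7%). The median log2 change of the 7 was 0.93, beside 0.39 for all TSS peaks. Among the flanking peaks, 20 of 29 passed the filter on low counts, and 5 of these were called higher and 3 lower. Of the 57621 peaks at no TSS that were tested, 6.51% were called higher and 15% lower. The median log2 change was 0.20 for the 20 flanking peaks (-0.11 with equal totals in peaks) and -0.05 for peaks at no TSS. The 9 flanking peaks that were not tested had means of 1.98 to 8.33 scaled counts.

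**Figure D1:**
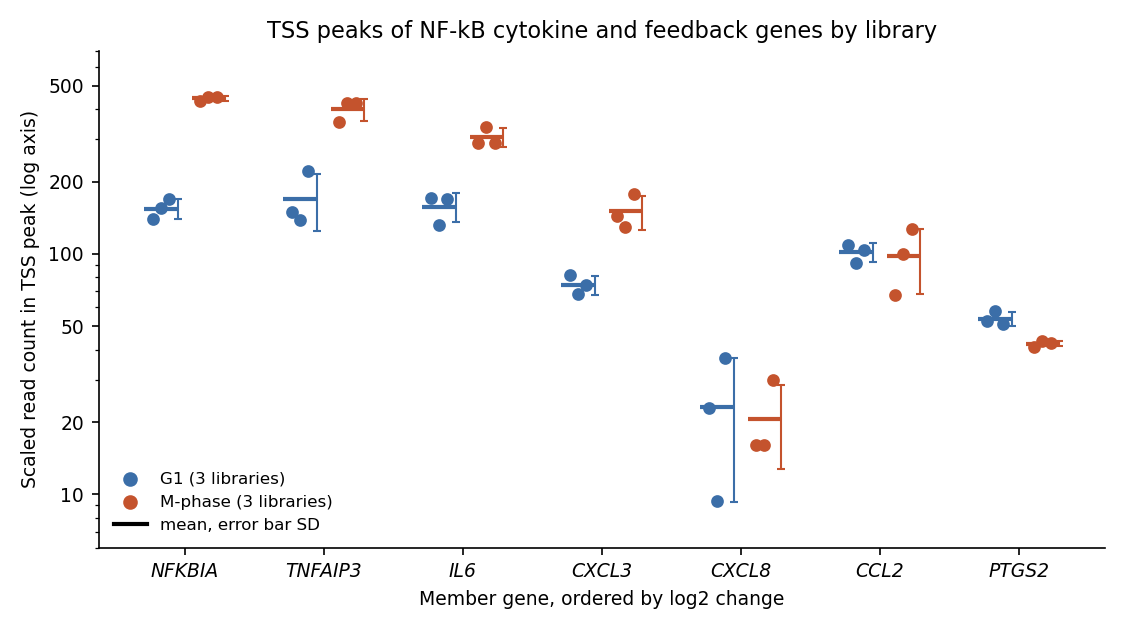
Scaled read count (log axis) in the TSS peak of the 7 member genes that had one, by library, with G1 in blue, M-phase in orange, a bar for the mean of 3 libraries and an error bar for the SD. The groups separate upwards for NFKBIA, TNFAIP3, IL6 and CXCL3, overlap for CXCL8 and CCL2, and M-phase lies slightly below G1 for PTGS2.

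The DNA element that names the pathway was present just upstream of most of these genes. On either strand, the NF-kB consensus occurred within 250 bases upstream of the MANE Select TSS in 7 of the 10 genes, the exceptions being CXCL8, LIF and PTGS2, and in 11.4% of 18922 such regions genome-wide. The genes were taken as genes of the NF-kB response, so this share is not independent of their choice. The matches are shown in 30-base stretches with the consensus in capitals, overlapping matches in 1 run, for every gene that carries one. These genes are the 4 with a promoter called higher (IL6, CXCL3, NFKBIA and TNFAIP3), CCL2 with an uncalled promoter peak, and CXCL1 and CXCL2 with no TSS peak in the table. A link between match and change was not tested. A match describes letters and is not evidence of binding, and the lack of one says nothing of the factor. Coordinates are hg19, each sequence is written 5′ to 3′ on the strand of its gene, and distances run from the TSS to the 5′ end of the match.
IL6 (chr7:22766736-22766765, + strand): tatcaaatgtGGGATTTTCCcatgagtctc
CXCL1 (chr4:74735021-74735050, + strand): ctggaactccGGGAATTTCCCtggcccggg
CXCL2 (chr4:74964971-74965000, - strand): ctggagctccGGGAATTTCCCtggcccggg
CXCL3 (chr4:74904466-74904495, - strand): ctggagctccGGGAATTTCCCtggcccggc
CCL2 (chr17:32582210-32582239, + strand): tatcactcatGGAAGATCCCtcctcctgct
NFKBIA (chr14:35874017-35874046, - strand): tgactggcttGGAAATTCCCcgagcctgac
TNFAIP3, first match (chr6:138188319-138188348, + strand): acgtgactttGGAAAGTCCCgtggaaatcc
TNFAIP3, second match (chr6:138188331-138188360, + strand): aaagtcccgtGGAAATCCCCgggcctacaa

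The 3 chemokine genes of the GRO group, CXCL1, CXCL2 and CXCL3, carried the same run of 11 capital letters, in which a match on each strand overlaps the other. It lay at almost the same distance from the TSS (79, 78 and 79 bases). A TSS peak was present in the table for CXCL3 alone. Of its 31-base words 17.4% occur more than once in the genome, and 100% of those of a peak 0.2 kb downstream of the CXCL2 TSS. Repeats at the TSS of CXCL1 and CXCL2 were not measured, and their part in this difference was not tested. The TNFAIP3 matches, each capitalised on its own line, began 67 and 55 bases upstream of the TSS, and their stretches overlap.

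IL6 encodes interleukin-6, a cytokine of the acute-phase response that signals through the receptor chain IL6ST. Its TSS peak (chr7:22766084-22767484), which also covers start sites of IL6-AS1 and STEAP1B, held 171.0, 132.0 and 169.0 scaled counts in G1 and 290.0, 337.9 and 290.6 in M-phase. All 3 M-phase libraries were above all 3 G1 libraries. The mean rose from 157 ± 22.0 to 306 ± 27.5 (SD, n = 3 each), a log2 change of 0.93 (SE 0.18, limma adjusted p = 3.11e-05). With libraries aligned along abundance by cyclic loess, which evens out changes shared by peaks of like height, the change was 0.41 (adjusted p = 0.0272). The stretch of this peak that lies in no exon upstream of the MANE Select TSS is shown for the NF-kB match and a C/EBP match (TTGCNNAA), both in capitals, since both factors are known to act on IL6.
IL6 TSS peak (chr7:22766635-22766765, + strand): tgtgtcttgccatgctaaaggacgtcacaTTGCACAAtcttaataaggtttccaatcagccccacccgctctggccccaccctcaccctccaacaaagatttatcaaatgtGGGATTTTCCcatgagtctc

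The remaining IL6 locus did not follow its promoter. A peak 3.9 kb upstream, in an intron of STEAP1B (chr7:22762837-22763061), held 24.9, 19.5 and 39.0 in G1 and 15.2, 14.4 and 7.7 in M-phase. It fell by 0.79 on the log2 scale (SE 0.29, limma adjusted p = 0.0307), with all M-phase libraries below all G1 libraries. This call was lost with loess (adjusted p = 0.0629), without G1 replicate 3 (0.179) and without M-phase replicate 3 (0.162). With 1 M-phase library under 10, the peak was not tested at a minimum of 10 in every library. The highest flanking peak, 8.9 kb upstream in the same gene, averaged 54.0 ± 16.6 and 61.3 ± 9.40 with overlapping libraries (log2 change 0.19, adjusted p = 0.624). Of the 8 peaks of the locus, the TSS peak and the peak 3.9 kb upstream were the only ones called as scaled by the authors.

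LIF encodes leukaemia inhibitory factor, an IL-6 family cytokine that keeps stem cells undifferentiated. It had no TSS peak in the table, but its upstream flank held the member peak with the highest mean scaled count, though not per kb, and 3 of the 5 rising flanking peaks. A broad peak 10.3 kb upstream (chr22:30651892-30654226, intergenic, 2335 bases) held 194.9, 224.2 and 195.0 in G1 and 580.9, 572.7 and 602.4 in M-phase. The groups were far apart, with means of 205 ± 16.9 and 585 ± 15.3 (SD, n = 3) and a log2 change of 1.48 (SE 0.17, limma adjusted p = 1.35e-11). That change stood at percentile 99.6 among peaks at no TSS. It was 0.76 with loess, and still called (adjusted p = 1.42e-06). An exon of the neighbouring gene OSM lies closer to this peak than the LIF TSS does.

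A narrower intergenic peak 4.1 kb upstream of LIF (chr22:30646637-30647001) held 25.8, 27.3 and 16.0 in G1 and 71.7, 68.8 and 58.2 in M-phase. The groups did not overlap, and the log2 change was 1.27 (SE 0.25, limma adjusted p = 4.12e-05). At 16.5 kb upstream, a peak over an exon of OSM, the gene of the related cytokine oncostatin M, held 12.9, 20.3 and 22.0 in G1 and 34.6, 41.2 and 33.2 in M-phase. Its libraries also separated, with a log2 change of 0.76 (SE 0.28, adjusted p = 0.0289). The call at OSM was lost with equal totals in peaks (0.161), without G1 replicate 1 (0.133), without M-phase replicate 1 (0.0657) and without M-phase replicate 2 (0.131). None of the 3 tested peaks downstream of LIF was called with limma, although 1 of them, at 17.7 kb, had a log2 change of 0.60 (adjusted p = 0.063, unadjusted p under 0.05, 0.024 adjusted with loess). The centre of the peak 4.1 kb upstream is shown because it is the rising flanking peak with matches to the NF-kB consensus. Capitals mark those matches, of which 3 overlap one another in the first run, and 1 match to the AP-1 element (TGANTCA).
LIF 4.1 kb upstream (chr22:30646670-30646969, - strand): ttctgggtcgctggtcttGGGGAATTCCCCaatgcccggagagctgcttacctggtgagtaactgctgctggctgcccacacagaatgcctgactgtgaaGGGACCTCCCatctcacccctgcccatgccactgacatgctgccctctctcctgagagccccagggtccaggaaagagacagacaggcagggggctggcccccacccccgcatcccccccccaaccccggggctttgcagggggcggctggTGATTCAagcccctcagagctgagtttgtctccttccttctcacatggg

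**Figure D2:**
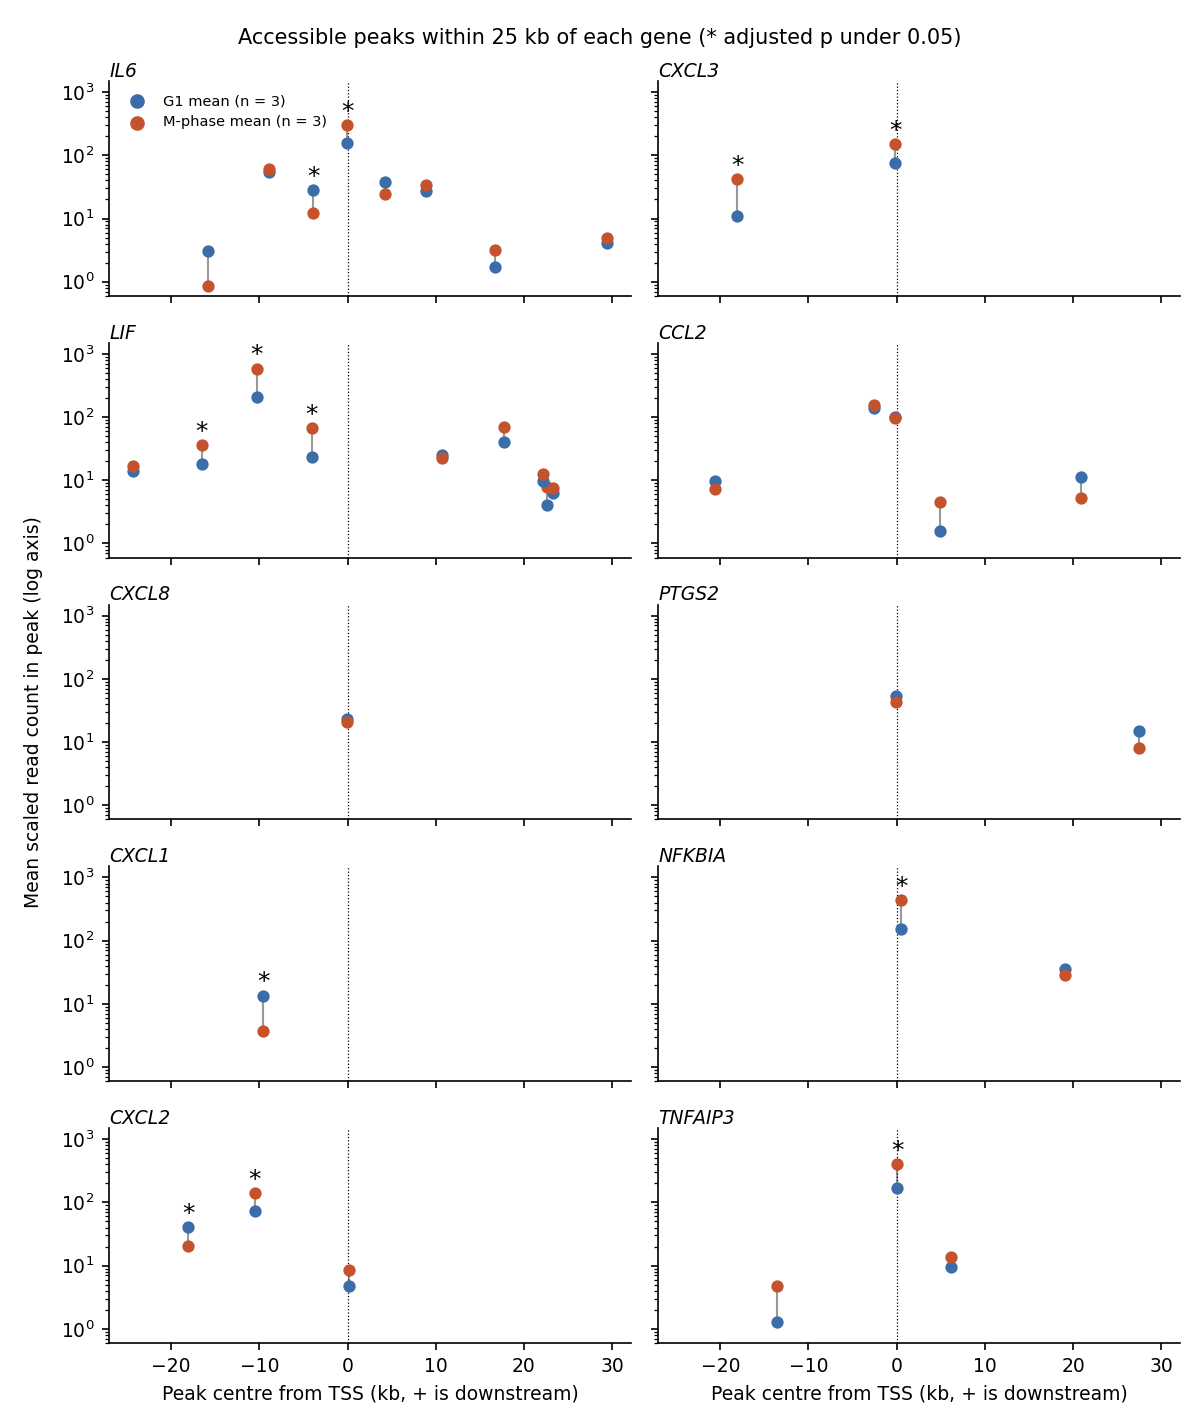
Mean scaled read count (log axis, 3 libraries a group) of each of the 36 member peaks against the distance of the peak centre from the MANE Select TSS in kb, with G1 in blue, M-phase in orange and a star at an adjusted p under 0.05. The rises sit at the TSS of IL6, CXCL3, NFKBIA and TNFAIP3 and upstream of LIF, CXCL2 and CXCL3, and no downstream peak has a star.

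The CXC chemokines, which attract neutrophils, lie in 1 cluster on chromosome 4 and are described gene by gene. CXCL8 (interleukin-8) had a single peak within its window, at the TSS (chr4:74606151-74606392). It held 22.9, 9.4 and 37 in G1 and 16.1, 16.1 and 29.8 in M-phase, overlapping throughout (log2 change -0.05, SE 0.30, adjusted p = 0.932). CXCL1 likewise had 1 peak, intergenic and 9.6 kb upstream (chr4:74725420-74725688), with 15.9, 12.5 and 12 in G1 and 6.6, 3.3 and 1.4 in M-phase. That peak fell by 0.89 on the log2 scale (SE 0.28, limma adjusted p = 0.00962) and its groups did not overlap. All its M-phase values were under 10, so it passed the filter on low counts through its G1 libraries alone. Its selection and its fall thus rest on the same values. The call was lost without M-phase replicate 3 (adjusted p = 0.0731).

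CXCL3 alone of the GRO group had a TSS peak in the table. Its TSS peak (chr4:74903942-74905157) held 81.5, 68.0 and 74.0 in G1 and 144.2, 129.8 and 177.1 in M-phase. The groups separated, at 74.5 ± 6.76 and 150 ± 24.2 (SD, n = 3), with a log2 change of 0.93 (SE 0.21, limma adjusted p = 0.000248). Of its 31-base words, 17.4% occur more than once in the genome, and the authors' mapping kept 1 location of reads with up to 3, so such reads cannot be placed with certainty. An intergenic peak 18.1 kb upstream (chr4:74922189-74922811) went from 6.0, 13.3 and 13.0 in G1 to 51.9, 33.4 and 41.4 in M-phase. It was the largest relative rise among the called members, 3.92 times in the means, with a log2 change of 1.43 (SE 0.28, adjusted p = 3.56e-05) and no overlap. Only 0.675% of its words are repeated. Its centre is shown as the most strongly opened chemokine peak, with the single AP-1 match in capitals.
CXCL3 18.1 kb upstream (chr4:74922351-74922650, - strand): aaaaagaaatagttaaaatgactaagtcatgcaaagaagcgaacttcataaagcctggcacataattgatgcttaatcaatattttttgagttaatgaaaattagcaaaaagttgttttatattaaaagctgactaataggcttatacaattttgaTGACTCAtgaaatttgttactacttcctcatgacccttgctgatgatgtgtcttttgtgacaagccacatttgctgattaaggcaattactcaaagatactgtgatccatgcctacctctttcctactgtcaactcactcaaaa

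CXCL2 combined a rise and a fall on the same side. The intergenic peak 10.5 kb upstream (chr4:74974865-74975975) held 64.6, 57.8 and 96.0 in G1 and 154.1, 126.5 and 138.1 in M-phase. It separated completely, with a log2 change of 0.89 (SE 0.21, limma adjusted p = 0.000621). At 18.1 kb upstream, in an intron of MTHFD2L (chr4:74982753-74983172), the values were 41.8, 28.9 and 52.0 in G1 and 23.1, 17.3 and 20.2 in M-phase. There the accessibility fell by 0.77 on the log2 scale (SE 0.27, adjusted p = 0.0247), again without overlap. This call was lost with loess (0.0781), without G1 replicate 1 (0.0625), G1 replicate 3 (0.118), M-phase replicate 2 (0.105) or M-phase replicate 3 (0.0525). The third CXCL2 peak, over an exon 0.2 kb downstream of the TSS, consisted entirely of words that occur elsewhere in the genome (100%) and was too low to test.

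CCL2, the monocyte attractant MCP-1, had an accessible promoter and a tall upstream peak, neither of which was called. The TSS peak (chr17:32581718-32582594) held 109.4, 91.4 and 104.0 in G1 and 67.6, 99.7 and 126.6 in M-phase. These groups overlapped (102 ± 9.24 and 98.0 ± 29.5, SD, n = 3), with a log2 change of -0.08 (SE 0.22, adjusted p = 0.822). The intergenic peak 2.5 kb upstream (chr17:32579240-32580284) held 147.1, 100 and 166.0 in G1 and 129.8, 175.5 and 168.4 in M-phase, also overlapping (0.20, SE 0.20, adjusted p = 0.499). Among the 5 peaks of the locus, none was called. The upstream peak is shown beside that of LIF because it also holds NF-kB matches, together with AP-1, FOX (TGTTTAC) and TEAD (GGAATG) matches, all in capitals, while its count did not change beyond the threshold. It was chosen for display after its values were seen.
CCL2 2.5 kb upstream (chr17:32579613-32579912, + strand): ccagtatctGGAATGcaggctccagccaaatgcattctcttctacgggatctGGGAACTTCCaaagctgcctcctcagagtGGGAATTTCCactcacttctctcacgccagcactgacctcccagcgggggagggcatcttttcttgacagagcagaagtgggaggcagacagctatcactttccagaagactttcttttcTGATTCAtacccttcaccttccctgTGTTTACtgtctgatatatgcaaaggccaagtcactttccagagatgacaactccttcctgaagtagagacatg

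PTGS2 encodes cyclooxygenase-2, the inducible enzyme of prostaglandin synthesis. Its TSS peak (chr1:186649181-186650089), shared with the antisense transcript PACERR, held 52.7, 57.8 and 51.0 in G1 and 41.2, 43.3 and 42.8 in M-phase. Every M-phase library was below every G1 library, but the log2 change of -0.29 (SE 0.24, limma adjusted p = 0.407) did not pass the threshold. With equal totals in peaks it was -0.60 (adjusted p = 0.0384), on a scale that moved the median of all tested peaks from 0.023 to -0.235. The peak 27.5 kb downstream behaved alike, at 14.7 ± 1.91 and 8 ± 3.39 (log2 change -0.52, adjusted p = 0.172, and 0.043 with equal totals). PTGS2 was the only member with a CpG-rich promoter peak that was not higher in M-phase.

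The feedback inhibitors had the largest promoter rises of the members as scaled by the authors, while with loess the change at CXCL3 (0.72) exceeded that at TNFAIP3 (0.62). NFKBIA encodes IkBα, which binds NF-kB dimers and carries them out of the nucleus. Its TSS peak (chr14:35872550-35874336) held 139.2, 155.5 and 169.0 in G1 and 432.6, 450.8 and 449.9 in M-phase. The groups were separated by a wide gap, at 155 ± 14.9 and 444 ± 10.3 (SD, n = 3), a log2 change of 1.48 (SE 0.18, limma adjusted p = 7.4e-11). It stood at percentile 97.7 of all TSS peaks tested. With loess it was 0.88 (adjusted p = 2.32e-07). The peak 19.1 kb downstream did not rise, with means of 35.4 ± 2.40 and 28.8 ± 6.99 (log2 change -0.26, adjusted p = 0.521). The 250 bases upstream of the TSS lie within this peak and are shown with the NF-kB match in capitals.
NFKBIA upstream of the TSS (chr14:35873956-35874205, - strand): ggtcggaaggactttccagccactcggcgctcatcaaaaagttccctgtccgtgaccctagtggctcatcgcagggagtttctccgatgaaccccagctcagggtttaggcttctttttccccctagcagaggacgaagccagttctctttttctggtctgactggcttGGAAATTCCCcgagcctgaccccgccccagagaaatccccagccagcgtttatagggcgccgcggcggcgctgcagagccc

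TNFAIP3 encodes A20, which removes activating ubiquitin chains from proteins upstream of NF-kB. Its TSS peak (chr6:138187677-138189289), shared with WAKMAR2, held 149.1, 139.1 and 222.0 in G1 and 352.2, 423.6 and 425.4 in M-phase. The lowest M-phase library was well above the highest G1 library, and the means were 170 ± 45.3 and 400 ± 41.8 (SD, n = 3). The log2 change was 1.22 (SE 0.18, limma adjusted p = 6.89e-08) and 0.62 with loess (adjusted p = 0.000206). An intronic peak 6.2 kb downstream averaged 9.63 ± 2.28 and 13.7 ± 4.76 and overlapped (log2 change 0.28, adjusted p = 0.514).

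**Figure D3:**
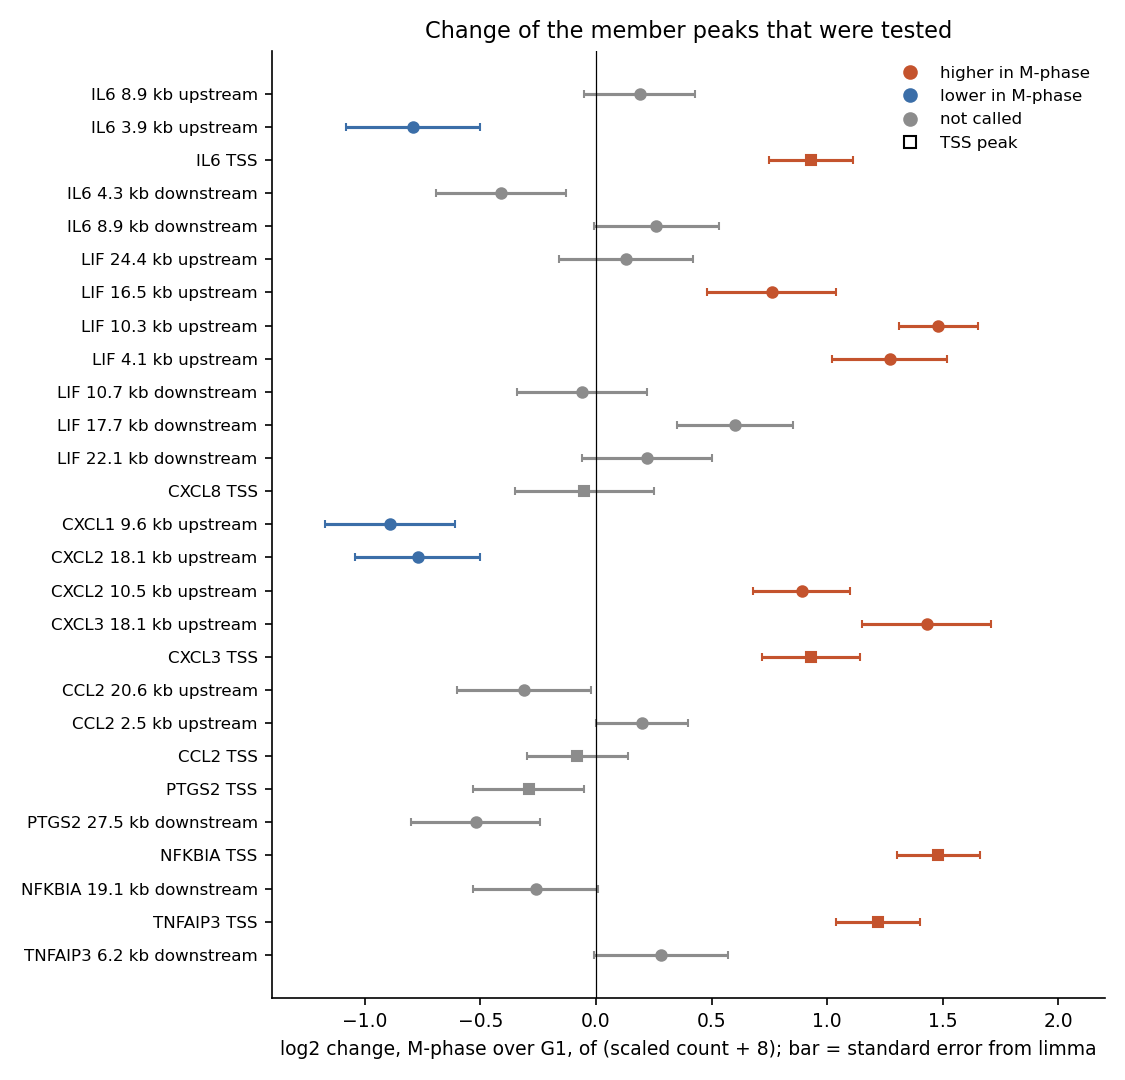
Log2 change (M-phase over G1, of scaled count + 8) with its limma standard error for the 27 member peaks that were tested, squares for TSS peaks and circles for flanking peaks, in orange where called higher, blue where called lower and grey otherwise. The rises reach 1.48 at NFKBIA and at the peak 10.3 kb upstream of LIF, and the falls reach -0.89 upstream of CXCL1.

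Among the TSS peaks and the LIF peak 10.3 kb upstream, the mean level over all 6 libraries was highest per kb of peak at the TSS of TNFAIP3 (177 scaled counts per kb), at the LIF peak (169), and at the TSS of NFKBIA (168) and IL6 (165). The other TSS peaks followed with CCL2 at 114, CXCL3 at 92.5, CXCL8 at 90.4 and PTGS2 at 53.0. Within a locus, the TSS peak was set against the highest flanking peak in each library, for the 6 genes that have both and a pair chosen after the values were seen. Ratios were taken after adding 8 to both scaled counts. At NFKBIA the log2 ratio of TSS to flank was 1.85, 1.85 and 2.01 in G1 and 3.43, 3.5 and 4 in M-phase, without overlap. The ratio also rose without overlap at TNFAIP3 (from 3.32 ± 0.27 to 4.25 ± 0.44) and IL6 (from 1.44 ± 0.23 to 2.19 ± 0.27). For these 3 genes p was 0.1 in an exact permutation test (two-sided), which 3 against 3 libraries cannot go below. At CXCL3, CCL2 and PTGS2 the ratios overlapped (exact permutation p = 0.2, 0.3 and 0.3). The flank at TNFAIP3 averaged only 9.63 in G1, so its ratio depends on the added 8. Such ratios were not formed for other genes. Across the table the median log2 change was 0.39 for TSS peaks and -0.05 for peaks at no TSS, so a rise of the ratio is not particular to these loci.

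Summed over all peaks of a locus, the scaled count was higher in every M-phase library than in every G1 library at 6 of the 10 loci. Such sums were not made for other loci. Among single tested peaks, the libraries separated upwards at 48.5% of TSS peaks and 12% of peaks at no TSS, and downwards at 8.7% and 21.3%. The sums at IL6, CXCL3, NFKBIA and TNFAIP3 include the TSS peaks already counted above. Sums were compared as log2 values without the added 8. The mean sum went from 345 ± 44.8 to 825 ± 24.6 at LIF, a difference of 1.26 in mean log2 values. The corresponding difference was 1.32 at NFKBIA, 1.24 at TNFAIP3, 1.17 at CXCL3, 0.54 at CXCL2 and 0.52 at IL6. With equal totals in peaks the difference was 0.18 at CXCL2 (exact permutation p = 0.5) and 0.17 at IL6 (p = 0.3), whose groups then overlapped, and without G1 replicate 2 it was 0.34 at CXCL2. The sum was lower in every M-phase library at CXCL1 (-2.10) and at PTGS2 (-0.44, from 68.6 ± 3.18 to 50.4 ± 2.31). The CXCL1 value rests on 1 low peak, whose change with 8 added was -0.89. At each of these 8 loci the exact permutation p (two-sided) was 0.1, the lowest possible with 3 libraries a group, so no locus could pass 0.05. At CXCL8 and CCL2 the sums overlapped (-0.01 and 0.05, exact permutation p = 1 and 0.8).

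Promoters rich in CpG, which lack DNA methylation in most cell types, opened more often in M-phase across the whole table, and the members were read against their own class. A TSS peak was counted as CpG-rich at a CpG observed over expected ratio above 0.6 and a GC content of at least 50%. The 4 CpG-rich member peaks were NFKBIA (ratio 0.71), TNFAIP3 (0.79), CXCL3 (0.74) and PTGS2 (0.80), and 3 of them were called higher, beside 51.5% of 11345 CpG-rich TSS peaks. The other 3 were IL6 (0.41), CCL2 (0.27) and CXCL8 (0.22), of which IL6 was called higher, beside 20.4% of 4155 such peaks. Median log2 changes were 0.51 in the CpG-rich class and 0.07 in the other. The IL6 change of 0.93 and the NFKBIA change of 1.48 were thus well above the medians of their classes, and the PTGS2 change of -0.29 was below.

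**Figure D4:**
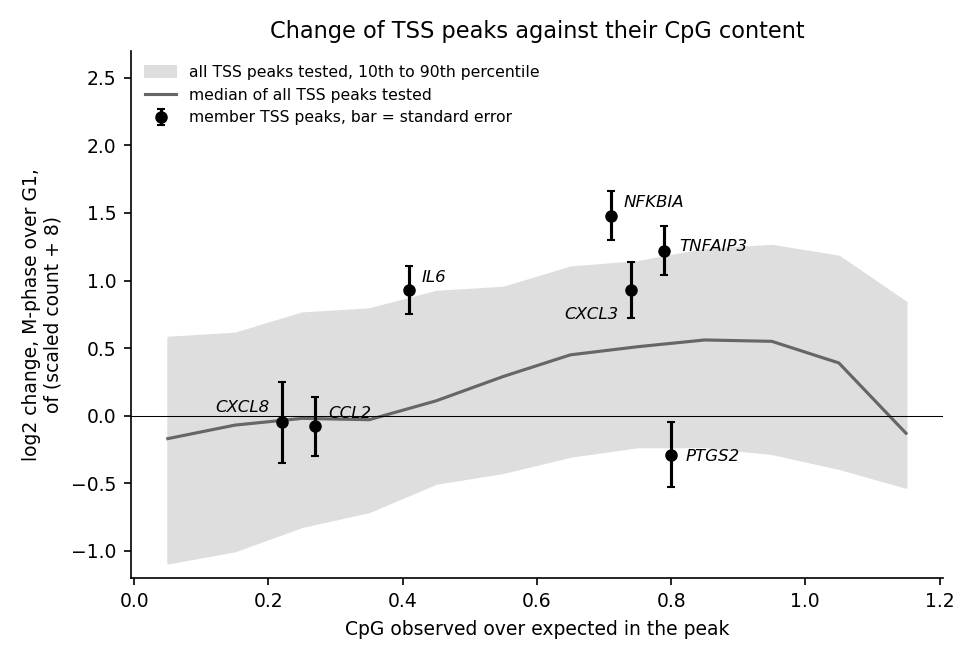
Log2 change of the 7 member TSS peaks (points, with limma standard error) against the CpG observed over expected ratio of the peak, beside the median (line) and the 10th to 90th percentile (band) of all TSS peaks tested. NFKBIA, TNFAIP3 and IL6 lie at or above the upper edge of the band, CXCL3 lies inside it, and PTGS2 lies near its lower edge.

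The flanking peaks that were called with the scaling of the authors all lay upstream of their gene. Of 12 tested upstream peaks, 5 were called higher and 3 lower, and of 8 tested downstream peaks limma called 0. At an unadjusted limma p under 0.05, 1 downstream peak was higher and 0 were lower, and edgeR on the recovered whole reads called 0. This count did not hold under other settings of limma. With equal totals in peaks, the peaks 4.3 kb downstream of IL6 (-0.68, adjusted p = 0.0472) and 27.5 kb downstream of PTGS2 (-0.72, 0.043) were lower, and the IL6 peak also was without G1 replicate 1 (-0.75, 0.0461). The peak 17.7 kb downstream of LIF was higher with loess (0.71, adjusted p = 0.024), with the replicate block (0.60, 0.041) and without M-phase replicate 2 (0.84, 0.0241). The split by side was made after the values were seen. Over all 20 tested flanking peaks, every M-phase library lay above every G1 library at 5 (12% of all tested peaks at no TSS) and below at 4 (21.3%). The 4 that were lower included the peak downstream of PTGS2 beside the 3 called falls. Counts of 5 and 3 called in 20 stand beside the 6.51% and 15% of the class.

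The other genes of the pathway were read from a list of 84 receptors, adaptors, kinases, NF-kB subunits, inhibitors and targets. Of these, 63 had a TSS peak, 78 peaks in all, and 47 of the 78 were called higher (60.3%) and 3 lower (3.85%), beside 43.2% and 5.94% of all TSS peaks. The list was not split by CpG content, and the higher share was 51.5% among CpG-rich TSS peaks and 20.4% among others. The median log2 change of the 78 was 0.68. With loess 25 were called higher and 7 lower, and with equal totals 35 were called higher and 10 lower. Over all 73121 tested peaks, higher calls went from 10439 to 7923 with loess and 6342 with equal totals. Lower calls went from 9548 to 9924 and 18092. The shares of TSS peaks were not counted under these settings, so whether the list then exceeds them cannot be told. The 3 largest rises were at BIRC2 (1.77, limma adjusted p = 3.33e-14), a ubiquitin ligase of the TNF receptor complex, at RELB (1.68, 1.32e-13), an NF-kB subunit of the alternative branch, and at IL6ST (1.59, 8.09e-13), the signalling receptor chain shared by IL6 and LIF.

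IL6ST held 302.2, 192.2 and 308.0 scaled counts in G1 and 778.6, 770.9 and 861.3 in M-phase, a complete separation. The specific receptor genes of these cytokines also had called TSS peaks. LIFR had a log2 change of 0.78 (limma adjusted p = 0.000293) at the highest of its 3 peaks. Its other peaks were not called and differed in direction (0.28, 0.499, and -0.51, 0.143). IL6R had a log2 change of 0.51 (0.0315). Among the NF-kB subunits, RELA (0.90, adjusted p = 2.89e-05), REL (0.49, 0.0236) and 1 of 2 peaks of NFKB2 (1.48, 2.88e-11, the other 0.56, 0.0746) were higher, while NFKB1, which encodes the p105 precursor of p50, had a log2 change of 0.27 that was not called (0.288). Of the other IkB family genes, NFKBIB (0.87, limma adjusted p = 4.09e-05), NFKBIE (1.22, 3.38e-07), BCL3 (0.93, 2.36e-06) and NFKBID (0.68, 0.00549) were higher. NFKBIZ was not called at either of its peaks (-0.25, limma adjusted p = 0.458, and 0.21, 0.391). The receptor, subunit and IkB genes were singled out after their values were seen. The called falls were at TNFAIP8 (-0.60, adjusted p = 0.00339), at TAB3 (-0.49, 0.038), an adaptor of the kinase TAK1, and at 1 of 3 peaks of the interleukin-1 receptor gene IL1R1 (-0.95, 0.00226), whose mean was under 50 scaled counts.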

How the data were processed

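Cells of the T98G line were assayed by ATAC-seq in 3 G1 and 3 M-phase libraries. The authors trimmed reads with cutadapt, aligned them to hg19 with Bowtie in QuasR, keeping 1 location of reads that mapped to up to 3, handled the alignments with SAMtools, and ran MACS2 in broad mode after merging replicates. Tool versions, the transposase offset and the way the M-phase runs from both platforms were joined are not given in the sources used here. The deposited values are a read signal, counts per peak scaled by the authors between libraries and rounded to 0.1. At least 99.91% of values in each library were whole multiples of 1 read within that rounding. This was clear in G1 replicate 2 and M-phase replicate 3. In M-phase replicates 1 and 2, 1 read is worth about 0.412, of which the rounding is a large part, and in G1 replicates 1 and 3 about 0.994 and 1, so that read totals and edgeR results rest on estimated reads. The authors' log2 columns hold their own comparisons and were not used, and all columns of per-sample ATAC-seq values were used.

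Peaks were assigned with GENCODE release 44 lifted to GRCh37 (hg19). Peaks passing edgeR's filter (minimum count 10, minimum total 15; 73121 of 129347) were tested with limma 3.58.1 with a mean-variance trend on log2(value + 8), since the values were scaled rather than raw counts. Alternatives were TMM, equal totals, cyclic loess, other filters, pseudocount 1, a replicate block, leaving out each library, windows of 10 and 50 kb, and edgeR 4.0.16 quasi-likelihood on the recovered reads. Tested on simulated data over 73121 peaks with 200 changed in the M-phase against G1 comparison, limma recovered 0.5% of 1.5-fold, 22% of 2-fold and 73.5% of 4-fold changes, or 1.6%, 57.1% and 97.7% where the mean was at least 50, with 0, 1 and 6 false calls. Most 1.5-fold changes were thus missed in a simulation with 200 changed peaks. In the data 10439 peaks were called higher and 9548 lower, so the adjustment was less strict there. The simulated shares therefore do not give the recovery in the data, where a change of 0.49 on the log2 scale was called at REL, for example.

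The members and lists were chosen with earlier results of these data known. The text names every TSS peak, every called flanking peak and the highest flanking peak of each locus, and of the pathway list the 3 largest called rises and falls with a mean of at least 50, of which only 2 falls existed. For NFKBIA the bases upstream of the TSS are printed in place of the peak centre. Motifs were searched on both strands (NF-kB consensus by name, AP-1 TGANTCA, C/EBP TTGCNNAA, FOX TGTTTAC, RUNX TGTGGT, TEAD GGAATG).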

Additional observations from a re-analysis of the deposited data

How the results depend on the processing

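The rises at the TSS of IL6, CXCL3, NFKBIA and TNFAIP3 and upstream of LIF (4.1 and 10.3 kb), CXCL2 (10.5 kb) and CXCL3 (18.1 kb) kept their direction and call under every alternative that could test them, with log2 changes of 0.41 to 0.99, 0.60 to 1.03, 0.88 to 1.54, 0.62 to 1.42, 0.98 to 1.51, 0.76 to 1.55, 0.57 to 1.09 and 1.19 to 1.95. With equal totals in peaks, 6342 of all peaks were higher (10439 as reported) and 18092 lower (9548 as reported), 1 member TSS peak and 5 flanking peaks were lower, 10 pathway peaks were lower, the median log2 change was 0.59 for member TSS peaks and -0.11 for flanking peaks, and the peaks 8.9 kb upstream of IL6 (-0.12) and 2.5 kb upstream of CCL2 (-0.13) and the CCL2 locus sum (-0.30) turned negative, while the sums at IL6 (0.17) and CXCL2 (0.18) no longer separated the groups. With loess, 7923 of all peaks were higher and 9924 lower, 1 flanking peak was lower, and 25 pathway peaks were higher and 7 lower. The TSS median was then 0.41, and CXCL8 (0.06) and the peak upstream of CCL2 (-0.14) changed sign. With at least 10 in every library, which tests fewer peaks, 5001 of all peaks and 1 flanking peak were lower. A window of 10 kb held 3 higher and 2 lower among 11 tested flanking peaks, and one of 50 kb held 11 higher and 5 lower among 37. Of all tested peaks at no TSS, 6.51% were called higher and 15% lower. Leaving out 1 library gave 0 to 3 lower flanking peaks, and the values near 0 ranged from -0.02 to 0.37 for the peak 8.9 kb upstream of IL6, -0.41 to 0.27 for the CXCL8 TSS, -0.28 to 0.14 for the CCL2 TSS, -0.56 to 0.43 for the CXCL8 sum and -0.07 to 0.22 for the CCL2 sum. The cause of these changes was not tested, beyond what the construction of a setting gives. Same-numbered libraries did not deviate together over the tested peaks (r = 0.00594, -0.0101 and 0.0284), so no pairing by number was visible. Whether same-numbered libraries were prepared together cannot be told from this. With the replicate block 10881 of all peaks were higher and 10063 lower, 4 member TSS peaks and 6 flanking peaks were higher, 3 flanking peaks were lower, 49 pathway peaks were higher and 3 lower, the medians were 0.93 and 0.20, and of the peaks given with values the one 17.7 kb downstream of LIF alone gained a call.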

Other observations

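Short sequence matches were counted in the central 300 bases of the 36 member peaks, as a description without a test. The NF-kB consensus was found in 4 of 7 TSS peaks (15% of all TSS peaks of the table) and in 2 of 29 flanking peaks (5.8% of all peaks at no TSS). A C/EBP match was found in 4 of the 7 TSS peaks, namely IL6, PTGS2, NFKBIA and TNFAIP3 (6.12% of all), and in 1 flanking peak (8.99%). AP-1, the binding element of FOS and JUN dimers, was absent from the 7 promoter windows (6.33% of all) and present in 8 of the 29 flanks (14.1%). The flanks with an AP-1 match included peaks that rose, such as those 18.1 kb upstream of CXCL3 and 4.1 kb upstream of LIF, the peak 18.1 kb upstream of CXCL2 that fell, and the uncalled peak 2.5 kb upstream of CCL2. RUNX matches were found in 1 TSS peak (9.7%) and 6 flanking peaks (17.7%), FOX matches in 1 (1.87%) and 2 (3.41%), and TEAD matches in 0 (10.2%) and 4 (13.7%). Many flanking peaks are narrower than 300 bases, and for those the whole peak was searched.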
